A study of Mus musculus with 2 samples.

Results

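The genes described here encode the proteins of the cytosolic ribosome. They were taken by name, as every gene symbol that opens with Rpl or Rps followed by a digit, together with Rplp0, Rplp1, Rplp2 and Rpsa, leaving out pseudogene names with -ps and the Rps6k kinases. The rule found 86 of the 32285 genes in the table. Of these, 77 are canonical ribosomal proteins (46 of the large subunit and 31 of the small), and 9 are paralogs or other genes with such a name (Rpl10l, Rpl22l1, Rpl36al, Rpl39l, Rpl3l, Rpl7l1, Rps19bp1, Rps27l and Rps27rt). Rps19bp1 is not a ribosomal protein but a partner of Rps19, so the rule is wider than the label in that gene, and it is narrower in leaving out the ribosomal proteins encoded by Fau and Rack1, whose values are given separately.

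Ribosomal proteins coat and shape the ribosomal RNA of both subunits, and most of them are needed in equal number in each ribosome. Their mRNAs are among the most abundant of growing cells, and many begin with a run of pyrimidines (the 5′ terminal oligopyrimidine tract) through which their translation is adjusted to growth signals. Neutrophils pass from dividing precursors, through cells that fill their secondary granules, to mature cells that no longer divide. Stromal cells of bone secrete matrix and keep a high rate of protein synthesis.

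The cells came from 1 single-cell library of osteal cells (Omacs) of female BALB/c mice that were 10 weeks old at surgery, collected 4 weeks after bilateral ovariectomy (OVX) or a sham operation, with no other treatment. In each condition, cells of 20 mice were pooled after enzymatic digestion of femurs and vertebrae and sorting with antibodies to CD11b, F4/80 and CD68, and were marked with hashtag 1 (OVX, 1037 cells loaded) or hashtag 2 (sham, 1084 cells loaded). The label calls the cells macrophages. The complement genes C1qa, C1qb and C1qc define many resident macrophages. They were at 0 to 1.02 UMIs per 1000000 UMIs (CPM) in every cluster. Other macrophage markers are given below with the cluster in which they were highest. With 1 pool in each condition there is no replicate, so no test was possible, and intervals are 95% intervals for counting error only, exact except for the ratio at equal composition.

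The library held 17681092 UMIs in 2349 cells, from 500 to 141565 UMIs a cell, and 1234242 of them were from the 86 genes. Cells were clustered without these genes, so that their levels could be compared between clusters that they did not help to define. Mature neutrophil-like cells made up 3 clusters, called by their leading genes the Stfa2 cluster (613 cells), the Jaml and Ccl4 cluster (569 cells) and the Retnlg cluster (501 cells), with the chemokine receptor gene Cxcr2 at 1587, 2452 and 1852 CPM. A further cluster of 336 cells held immature neutrophil-like cells (Ltf at 3320 CPM) and cycling cells (Mki67 at 249.8 CPM). A stromal-like cluster of 209 cells had Prg4 at 25966 CPM and the leukocyte gene Ptprc at 5.85 CPM. The last cluster, of 121 cells, is called the Arg1 and Pf4 cluster. It has no cell type name here, since platelet genes and genes of antigen presentation led it beside Arg1. Of the 10 macrophage markers listed, 7 reached 10 CPM in it, among them Arg1 (3950 CPM), Msr1 (855 CPM), Csf1r (93.2 CPM) and Adgre1 (66.6 CPM). In the other clusters 1 to 4 of them did. HTODemux gave 1059 cells to OVX and 981 to sham. The other 78 cells with both hashtags and 231 with neither, which included 53.1% of the stromal-like cells, were left out of the comparison of conditions.

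Start sites are shown for those members in the table of start sites that stood far from the rest of the set in the comparisons of cells, first those with a pyrimidine run and then those without, since the pyrimidine run at the start is the shared sequence feature of these genes. Each line gives 30 bases of RefSeq sequence (GRCm38.p6), 15 before and 15 from the annotated start on, 5′ to 3′ on the gene's strand, with capitals for the run (C followed by at least 4 bases that are C or T, opening within 5 bases of the start).
Rps9, chr7:3704026-3704055, plus strand: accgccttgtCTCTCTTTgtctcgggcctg
Rps27, chr3:90213634-90213663, minus strand: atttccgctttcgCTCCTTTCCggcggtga
Rps27rt, chr9:114982725-114982754, minus strand: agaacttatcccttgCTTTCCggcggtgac
Rpl12, chr2:32961697-32961726, plus strand: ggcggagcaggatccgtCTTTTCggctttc
Rps2, chr17:24720048-24720077, plus strand: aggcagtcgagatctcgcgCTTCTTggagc
Rps18, chr17:33955651-33955680, minus strand: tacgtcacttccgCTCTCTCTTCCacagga
Rpl14, chr9:120571502-120571531, plus strand: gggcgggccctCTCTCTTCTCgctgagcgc
Rpl10, chrX:74270801-74270830, plus strand: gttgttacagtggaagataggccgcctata
Rpl36a, chrX:134585639-134585668, plus strand: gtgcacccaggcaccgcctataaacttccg
Rpl9, chr5:65391417-65391446, minus strand: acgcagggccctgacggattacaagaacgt
Rpl37, chr15:5116598-5116627, plus strand: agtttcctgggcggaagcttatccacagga
Rpl7l1, chr17:46782642-46782671, minus strand: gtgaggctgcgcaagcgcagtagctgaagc
Rpl10a, first start, chr17:28328456-28328485, plus strand: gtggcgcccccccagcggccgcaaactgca
Rpl10a, second start, chr17:28328550-28328579, plus strand: gctctatttgagcgcatgcgcaaagcgctc
The table of start sites held 66 of the 86 genes, with 78 starts. A run opened within 5 bases of the start in 32 of these and in 18.3% of the 32851 starts of all genes in the table, and exactly at the start in 17.9% and 2.51%. Only the gene's own strand was read, and a run may overlap other motifs. A run was read from any C within 5 bases of the start, also where C or T stood directly before it. In Rpl14 the pyrimidines begin further upstream than the marked run, so the counts include runs that continue from upstream. The run was found both in Rps9 and Rps27, the canonical members least raised in immature and cycling and in stromal-like cells, and in Rps18 and Rpl14, which were among the members with the highest departures. None opened within 5 bases of the start in Rpl9, Rpl10 and Rpl37, with low departures, or in Rpl10a and Rpl36a, with high ones. None did in Rpl7l1. This says only that no such run opened there. The line of the first Rpl10a start holds a run of C that opens more than 5 bases before the start. Too little of it lies within 5 bases of the start for it to be marked.

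The summed share of UMIs from the 86 genes was lowest in mature neutrophil-like cells and highest in stromal-like cells. Pooled over cells, it was 1.36% in the Stfa2 cluster (95% interval 1.35 to 1.37), 1.48% in the Jaml and Ccl4 cluster (1.46 to 1.49) and 1.78% in the Retnlg cluster (1.76 to 1.79). It was 5.13% in the immature and cycling cluster (5.11 to 5.16), 8.90% in the Arg1 and Pf4 cluster (8.85 to 8.96) and 15.8% in the stromal-like cluster (15.8 to 15.8). These counting intervals of the 6 clusters did not overlap, but they hold no spread between cells. The median cell had 1.09% in the Stfa2, 1.39% in the Jaml and Ccl4 and 1.39% in the Retnlg cluster. Against the mature clusters together (1.5%), the share was 3.42-fold higher in the immature and cycling cluster (3.4 to 3.45), 5.94-fold higher in the Arg1 and Pf4 cluster (5.88 to 5.99) and 10.5-fold higher in the stromal-like cluster (10.5 to 10.6). The stromal-like cells, 209 of 2349, held 70.1% of all UMIs of these genes, and the 1683 mature cells held 9.84%. These parts also hold depth, with a median of 20087 UMIs in stromal-like and 3498 in mature cells. Of the 17681092 UMIs of all genes, stromal-like cells held 5469894 and mature cells 8099730.

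**Figure D1:**
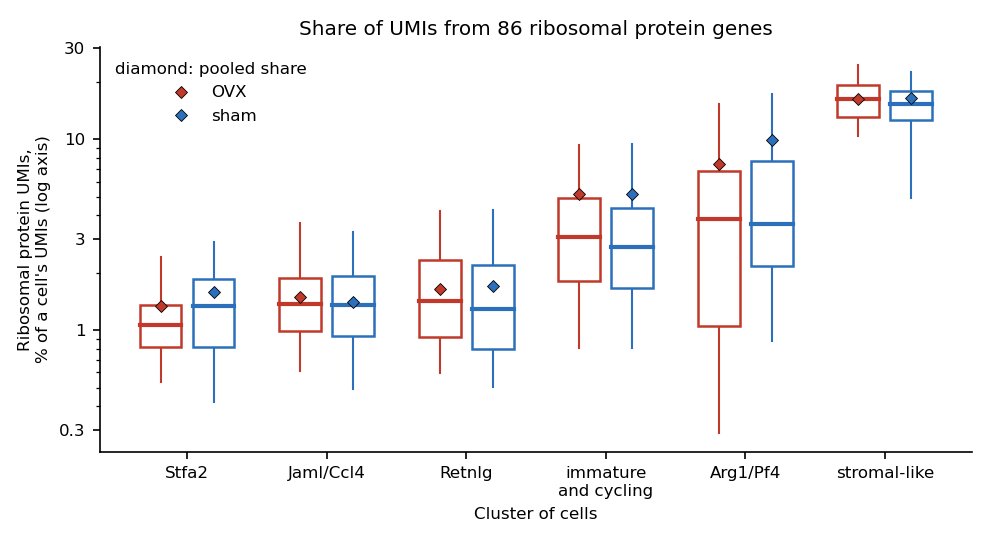
Share of a cell's UMIs that came from the 86 genes (y axis, percent, log scale) in each of the 6 clusters (x axis), for OVX cells in red and sham cells in blue. Boxes span the quartiles of cells with the median as a line, whiskers run from the 5th to the 95th percentile, and diamonds are the pooled shares. Medians lie between 1.06% and 1.42% in the mature clusters and at 15.4% or above in the stromal-like cluster, and the pooled share lies above the upper quartile in the immature and cycling and the Arg1 and Pf4 clusters in both conditions.

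Cells within a cluster differed. In the immature and cycling and the Arg1 and Pf4 clusters the deepest cells had the highest shares and drew the pooled values up. The median cell had 2.89% in the immature and cycling cluster and 3.35% in the Arg1 and Pf4 cluster, both well under the pooled shares, while in the stromal-like cluster it had 14.8%. When the immature cluster was ordered by UMIs a cell and cut into 4 bins of 84 cells, the pooled share was 2.62%, 2.84%, 3.42% and 7.25% from the shallowest to the deepest. The same cut of the Arg1 and Pf4 cluster gave 2.36%, 3.46%, 4.99% and 11.2%. In the Jaml and Ccl4 cluster the shallowest bin (1.76%) was above the deepest (1.33%). The same held in the Retnlg cluster (2.30% and 1.83%), so that depth and the share did not move together everywhere. The part of depth in these values was not tested.

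The immature cluster was then clustered on its own into 2 groups, a split chosen after the data were seen. The 48 cycling cells (Mki67 at 969 CPM) had a share of 9.20% (9.13 to 9.26) and a median depth of 14892 UMIs. The 288 non-cycling cells, with Ltf at 3599 CPM and Mki67 at 22.7 CPM, had 3.85% (3.82 to 3.87) at a median depth of 7513 UMIs. The share was therefore 2.39-fold higher in the cycling cells (2.37 to 2.41), and still 2.57-fold higher in the non-cycling immature cells than in mature cells (2.54 to 2.59).

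Along diffusion pseudotime, which ordered the cells of the mature and immature clusters without the 86 genes, starting at a cell rich in UMIs of the cycling genes Mki67 and Top2a, the share was 6.57% in the first decile of cells, 2.36% in the second and 1.73% in the third. It lay between 1.30% and 1.5% from the fourth to the ninth decile and was 1.74% in the last. The secondary granule gene Ltf was at 4313 CPM in the first decile and 250.8 CPM in the fourth, and Cxcr2 was at 445.1 and 1751 CPM in the same deciles. Most of the difference in the share thus lay before the deciles with the highest Cxcr2. Median depth fell along the same order, from 8070.5 UMIs in the first decile to 4466 in the fourth and 2398 in the last. The part of depth in this order was not tested.

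**Figure D2:**
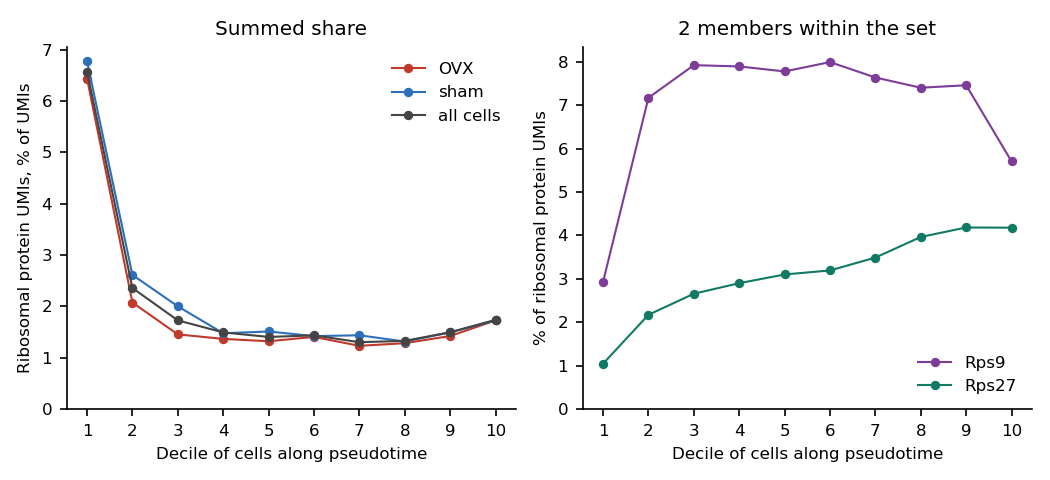
Left, share of UMIs from the 86 genes (y axis, percent) in deciles of neutrophil-like cells along pseudotime (x axis), for all cells and for OVX and sham cells. Right, Rps9 and Rps27 as a percent of the UMIs of the 86 genes in the same deciles. The summed share is 6.57% in the first decile and 1.30% at its lowest in the seventh, while Rps9 is at 2.93% and 7.64% of the set in those deciles.

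RNA that leaks from broken stromal cells into other droplets was gauged by Prg4 and Dcn, genes of joint lubrication and of matrix. In the mature clusters they were at 0.397% and 0.603% of their stromal level. Stromal RNA at those shares carries 0.0627% and 0.0953% of UMIs from the 86 genes, against the 1.5% measured. Free RNA of other cells was not gauged.

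Summed over its genes, the large subunit gave more UMIs than the small. There were 1.23 large-subunit UMIs for each small-subunit UMI over all cells (1.22 to 1.23). The canonical members are 46 large-subunit and 31 small-subunit genes, so a ratio above 1 need not mean more UMIs per gene. The ratio was 1.31 in stromal-like cells (1.30 to 1.31) and 1.28 in the Arg1 and Pf4 cluster (1.26 to 1.29). It was 1.07 in the immature and cycling cluster (1.06 to 1.08), 1.03 in the Jaml and Ccl4 cluster (1.00 to 1.05), 0.933 in the Stfa2 cluster (0.917 to 0.948) and 0.903 in the Retnlg cluster (0.885 to 0.921). Without the UMIs of stromal-like cells the overall ratio was 1.07. The Stfa2 cluster had 26854 large-subunit and 28789 small-subunit UMIs, 4596 of the latter from Rps9. The Retnlg cluster had 18755 and 20781, 2995 of the latter from Rps9. In both, the UMIs of Rps9 alone exceeded the gap between the subunits. This was not particular to Rps9, since those of Rps12 (2004) also did in the Stfa2 cluster, though not in the Retnlg cluster (1409).

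Of the 86 genes, 85 had a UMI, and Rpl10l, known from testis, had none, which allows up to 0.170 CPM. Among those with the most UMIs were Rplp1 (42019), an acidic protein of the ribosomal stalk, Rpl41 (34708), the shortest of these proteins, Rpl23 (29303), and Rps27a (29162), which is made as a fusion with ubiquitin. Canonical members ranged from 2044 (Rpl29) to 42019 UMIs with a median of 14575, and 62 of the 77 had at least 10000. UMIs count molecules captured at their 3′ end and were not divided by length. Levels of different members are uncertain in another way, because many have near-identical copies in the genome. Of the 60-base words in the last 400 bases of their transcripts, at least 50% occur in transcripts of other annotated genes for 33 of the 77 canonical members, and none for 19. The share was 100% for Rpl29, Rpl10 and Rpl36a, 95.9% for Rps12, 72.7% for Rps27 and 4.69% for Rps9. How reads that match several places were counted can therefore set the level of a member, and ratios of the same member between groups of cells are used below.

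Nearly every member was higher outside the mature clusters. The text counts a gene as past the fold at 1.5-fold or more among genes at 50 CPM or more over all cells, a level that 81 members, including all 77 canonical ones, reached. In the immature and cycling cluster 76 of the 77 canonical members were past the fold and higher than in the mature clusters, against 26.4% of all 2667 genes at that level. In the stromal-like cluster all 77 were, against 43.8% of all genes. In the Arg1 and Pf4 cluster all 77 were, against 42.7% of all genes. The medians of the canonical members were 1.99, 3.62 and 2.86 on the log2 scale in these comparisons, and those of all genes were -0.12, 0.16 and 0.29. The 3 comparisons share the mature clusters as their base. The exception was Rps27, at 1.37-fold in the immature and cycling cluster.

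Members were not raised by the same fold. A departure is used here for the log2 of a member's share of the set's UMIs in a group of cells over its share in another, so that 0 means that the member followed the set. Among the 82 members with at least 100 UMIs in both groups, departures in stromal-like against mature cells ran from -2.60 to 1.91, with 16 at 1 or more, 5 at -1 or less, and 36 within 0.5 of 0. In the immature and cycling cluster they ran from -1.32 to 1.63 over 81 members, with 8 at 1 or more and 3 at -1 or less. In the Arg1 and Pf4 cluster they ran from -1.91 to 1.93 over 80 members, with 13 at 1 or more and 2 at -1 or less.

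**Figure D3:**
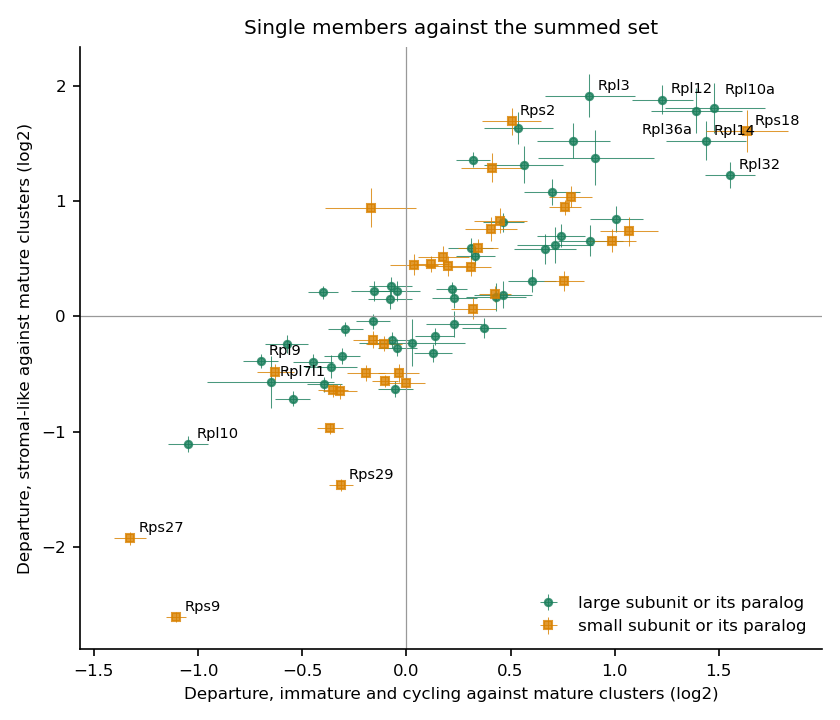
Departure of each member from the summed set (log2 of its share of the set's UMIs) in immature and cycling cells (x axis) and in stromal-like cells (y axis), both against the mature clusters, which the axes share as their base. Each point is a member with at least 100 UMIs in every group, circles for the large subunit and squares for the small, with 95% counting intervals. Rps9 (-1.10 and -2.60) and Rps27 (-1.32 and -1.92) lie at the lower left, and Rpl10a (1.48 and 1.80) and Rps18 (1.63 and 1.61) at the upper right.

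Rps9, a small-subunit protein that binds ribosomal RNA early in assembly and bears on decoding accuracy, stood farthest below the set in the stromal-like and the Arg1 and Pf4 clusters, and next after Rps27 in the immature and cycling cluster. The gene lies on chromosome 7 from 3703993 to 3706897 (GRCm38, plus strand). It was at 1123 CPM in the Stfa2 cluster, 966 CPM in the Jaml and Ccl4 cluster and 1346 CPM in the Retnlg cluster, then at 1830 CPM in the immature and cycling, 1818 CPM in the Arg1 and Pf4 and 1993 CPM in the stromal-like cluster. Its level was thus 1.73-fold higher in stromal-like than in mature cells, where the set was 10.5-fold higher. As a share of the set's UMIs it was 8.26%, 6.55% and 7.58% in the 3 mature clusters, 3.57% in the immature and cycling, 2.04% in the Arg1 and Pf4 and 1.26% in the stromal-like cluster. At least 1 UMI of it was found in 90.4% of all cells, more than of any other member. Its departures were -1.10 (-1.15 to -1.06), -1.91 (-1.98 to -1.84) and -2.60 (-2.65 to -2.56) in immature, Arg1 and Pf4, and stromal-like cells. Taking each mature cluster as the base in turn, the stromal-like value lay between -2.71 and -2.38.

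Rps27 (chromosome 3, 90212522 to 90213651, minus strand), a zinc-finger protein of the small subunit, stood below the set in the same clusters. It was at 364 to 618 CPM in the mature clusters, 657 CPM in the immature and cycling, 789 CPM in the Arg1 and Pf4 and 1338 CPM in the stromal-like cluster. It took 2.68% to 4.19% of the set's UMIs in the mature clusters and 0.846% in stromal-like cells, with departures of -1.32, -1.86 and -1.92. Rps29, another zinc-binding protein of the small subunit, departed by -1.46 in stromal-like cells (-1.51 to -1.41) and by -0.32 in immature cells. Rpl10, which joins the large subunit late in assembly near the peptidyl transferase centre, departed by -1.05 in immature, -0.81 in Arg1 and Pf4 and -1.10 in stromal-like cells. Rpl9 departed by -0.70 and -0.80 in the first 2 of these, Rpl37 by -0.84 in the Arg1 and Pf4 cluster, and Rpl7l1 by -0.65 (-0.96 to -0.35) in immature cells. Rps27rt, an intron-poor copy of Rps27 whose reads cannot be told well from those of Rps27, departed by -2.18 in stromal-like cells on 212 and 135 UMIs.

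At the other end, several members had a higher share of the set's UMIs in stromal-like than in mature cells. Rpl3, a protein of the large subunit near the catalytic centre, was at 30.3, 29.7 and 33.3 CPM in the mature clusters, 195 CPM in the immature and cycling, 548 CPM in the Arg1 and Pf4 and 1228 CPM in the stromal-like cluster, which is 39.6-fold higher than in mature cells. Rpl12, of the stalk base, was at 63.7 CPM in mature and 2470 CPM in stromal-like cells, a 38.8-fold difference. Rpl10a, of the L1 stalk, was at 22.3 and 823 CPM, a 36.8-fold difference. Rpl36a (27.3 and 988 CPM) and Rps2 (77.0 and 2619 CPM), which lies at the mRNA entry side of the small subunit, differed by 36.2-fold and 34-fold. Their departures in stromal-like cells were 1.91, 1.88, 1.80, 1.78 and 1.69.

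The members highest in immature against mature cells were Rps18, Rpl32, Rpl10a, Rpl14 and Rpl36a, with departures of 1.63 (1.44 to 1.83), 1.55 (1.43 to 1.67), 1.48 (1.24 to 1.72), 1.44 (1.25 to 1.63) and 1.39 (1.17 to 1.61). Rps18, of the head of the small subunit, was at 32.6 CPM in mature and 346 CPM in immature and cycling cells. In the Arg1 and Pf4 cluster the highest were Rpl14 (1.93), Rpl10a (1.81), Rpl3 (1.57), Rpl12 (1.43) and Rps18 (1.42). Within the immature cluster, cycling against non-cycling cells gave departures of 1.13 for Rps2 and 1.01 for Rpl3, the highest, and of -0.96 for Rps27 and -0.92 for Rps9, the lowest. Taking off the stromal free RNA gauged by Prg4 moved the departures of Rpl3, Rpl12 and Rps9 in stromal-like cells to 2.09, 2.06 and -2.66.

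**Figure D4:**
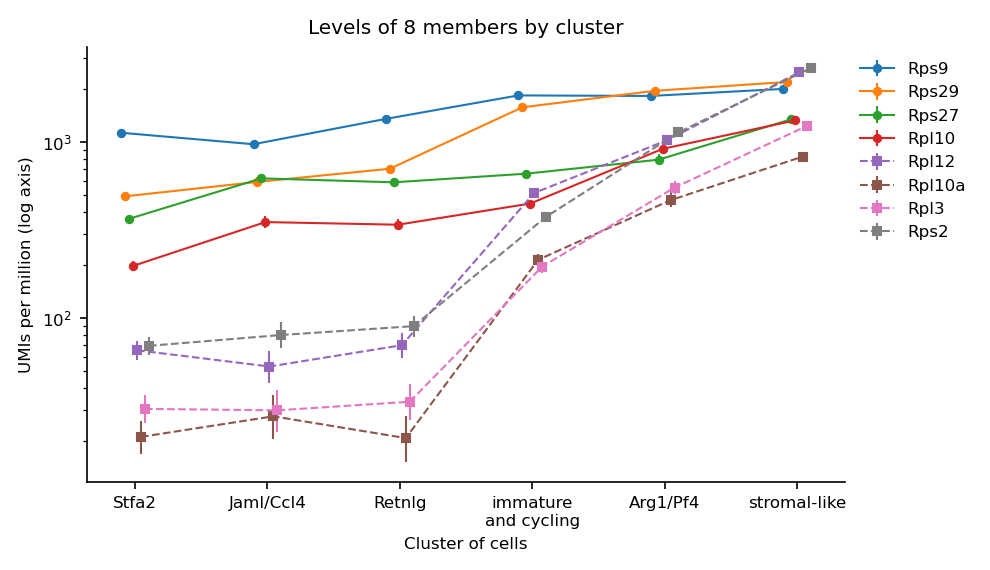
Levels of 8 members (y axis, CPM, log scale) in the 6 clusters (x axis), with 95% Poisson intervals and lines only to join the points of a gene. The 4 members with solid lines (Rps9, Rps29, Rps27 and Rpl10) and the 4 with dashed lines (Rpl12, Rpl10a, Rpl3 and Rps2) are separate in the mature clusters, where Rpl10 is at 196.7 CPM or above and Rps2 at 89.5 CPM or below, and overlap in the stromal-like cluster, where Rps9 is at 1993 CPM and Rpl12 at 2470 CPM.

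The paralogs did not all follow their counterparts. Their ratios are compared between groups of cells and are not read as relative amounts, since 100% of the 3′ words of Rpl36a, 82.7% of those of Rpl3, 80.6% of those of Rpl7, 77.1% of those of Rpl36al and 72.7% of those of Rps27 occur in other genes. Rpl3l, known as the form of Rpl3 in striated muscle, was the only member with a UMI whose level was lower in stromal-like than in mature cells. It had 68, 22 and 34 UMIs in the 3 mature clusters, 39 in the immature and cycling, 5 in the Arg1 and Pf4 and 3 in the stromal-like cluster, or 15.3 CPM in mature (12.7 to 18.3) and 0.548 CPM in stromal-like cells. That is a ratio of 27.9 (9.33 to 137). For each 100 UMIs of Rpl3 there were 49.4 of Rpl3l in mature cells (39.5 to 61.5), 6.38 in immature and cycling cells and 0.0447 in stromal-like cells. No 60-base word of its 3′ end occurs in another annotated gene. It had 171 UMIs in 146 cells in all, so it was far rarer than any canonical member.

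Rps27l, the paralog of Rps27 known as a target of p53, was at 40.1 CPM in mature, 122 CPM in immature and cycling, 489 CPM in Arg1 and Pf4 and 813 CPM in stromal-like cells. For each 100 UMIs of Rps27 there were 8.34 of Rps27l in mature cells (7.42 to 9.34), 18.5 in immature and cycling cells (16.6 to 20.7), 62.0 in the Arg1 and Pf4 cluster (55.2 to 69.6) and 60.7 in stromal-like cells (58.5 to 63.1). Rpl22l1 stood at 31.6 per 100 UMIs of Rpl22 in mature cells (26.1 to 38), 32.2 in immature and cycling cells (28.6 to 36.2), 20.8 in the Arg1 and Pf4 cluster (17.5 to 24.5) and 51.9 in stromal-like cells (49.6 to 54.4), so the first 2 could not be told apart. Rpl36al was at 163 per 100 UMIs of Rpl36a in mature cells (138 to 194) and 72.9 in stromal-like cells (70.0 to 76.0). Rpl7l1 was at 15.5 per 100 UMIs of Rpl7 in mature cells (13.3 to 18.1) and 8.98 in stromal-like cells (8.40 to 9.60). Rps27rt was at 3.46 per 100 UMIs of Rps27 in mature and 2.90 in stromal-like cells, with overlapping intervals (2.89 to 4.11 and 2.52 to 3.32). The 9 UMIs of Rpl39l, a testis paralog of Rpl39, came from 1 stromal-like cell. Rps19bp1 was at 6.42 CPM in mature and 66.2 CPM in stromal-like cells.

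Of the ribosomal proteins outside the name rule, Rack1, a scaffold on the small subunit, was at 58.9 CPM in mature, 266 CPM in immature and cycling and 1403 CPM in stromal-like cells. Against mature cells it was higher by 2.18 and 4.57 on the log2 scale, where the summed set was higher by 1.77 and 3.4. Fau, a ubiquitin-like fusion of the small subunit, was at 1326, 1563 and 1956 CPM in the same cells, a difference of 0.56 on the log2 scale between stromal-like and mature cells, which is smaller than that of Rps9 (0.79).

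Genes that act with the ribosome were also higher outside the mature clusters. Of 11 ribosome biogenesis genes at 50 CPM or more, 10 were past the fold in immature and cycling cells and all 11 in stromal-like cells, against 26.4% and 43.8% of all genes, with medians of 2.54 and 5.32 on the log2 scale. Among them, Npm1, which shuttles ribosomal subunits out of the nucleolus, was at 38.1 CPM in mature and 2021 CPM in stromal-like cells, and Nop58, of the snoRNA-protein complexes, at 4.44 and 387 CPM. The exception in immature cells was Ubtf, a factor of ribosomal RNA transcription, at 45.1 CPM in mature and 41.1 CPM in immature and cycling cells. Summed, the 31 listed biogenesis genes held 0.0345% of UMIs in mature, 0.107% in immature and cycling and 0.654% in stromal-like cells.

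Translation factors differed among themselves. Of 25 initiation factors, 18 were past the fold in immature and cycling and 24 in stromal-like cells, and of 7 elongation and poly(A) factors, 6 were in each, against 26.4% and 43.8% of all genes. Eef1g, of the elongation factor 1 complex, was at 29.3 CPM in mature and 712 CPM in stromal-like cells. The poly(A)-binding protein gene Pabpc1 was at 658 CPM in mature, 679 CPM in immature and cycling and 664 CPM in stromal-like cells. Eif1, which guards start codon choice, was at 1900, 1623 and 2714 CPM. Of 13 mitochondrial ribosomal protein genes at that level (of 78), 10 were past the fold in each comparison, beside the same shares of all genes, with medians of 0.87 and 2.58. Of the 7 regulators listed, such as Larp1, which binds the pyrimidine tract, and Mtor, only Eif4ebp1 reached 50 CPM, at 75.9 CPM in mature and 324 CPM in stromal-like cells.

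Between conditions, the summed share was lower in OVX than in sham cells, at 4.66% (4.64 to 4.67) against 7.04% (7.02 to 7.06), a ratio of 0.662 (0.659 to 0.665). The median cell had 1.28% in OVX and 1.58% in sham. All 77 canonical members were lower in OVX, and 45 of them were past the fold, against 17.4% of all genes past the fold and lower. Genes in general also leaned lower in OVX, with a median of -0.16 on the log2 scale over all 2667 genes and -0.61 over the canonical members. The clusters made up different parts of the conditions. The Stfa2 cluster, with the lowest share, held 44.6% of OVX and 6.96% of sham UMIs. The stromal-like cluster held 16.6% of OVX and 24.8% of sham UMIs, and the immature and cycling cluster 15.1% and 24.9%. With each cluster given the same weight in both conditions, the ratio was 0.953 (0.949 to 0.958), and over cells of equal weight it was 1.01. As hashtagged pools, OVX and sham cells differ in their animals and in the cells that each hashtag could be read in, and these cannot be told apart from the operation.

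Within clusters the ratios of OVX to sham ran from 0.745 to 1.06 and lay on both sides of 1. The share in OVX and sham was 16.3% and 16.5% in stromal-like cells (ratio 0.986, 0.981 to 0.992), and 5.19% and 5.18% in immature and cycling cells (1.00, 0.991 to 1.01). It was 1.49% and 1.40% in the Jaml and Ccl4 cluster (1.06, 1.04 to 1.09), and 1.64% and 1.71% in the Retnlg cluster (0.961, 0.938 to 0.985). It was 1.34% and 1.59% in the Stfa2 cluster (0.846, 0.825 to 0.868), where the median depth was 5926.5 UMIs in 462 OVX cells and 2027 UMIs in 115 sham cells. Within 4 such bins of that cluster, OVX cells were at 1.01%, 1.07%, 1.11% and 1.53% and sham cells at 1.45%, 0.977%, 1.58% and 1.91%, so that OVX was lower in 3 of the 4. The bins held only 64, 22, 14 and 15 sham cells, beside 79, 121, 129 and 133 OVX cells. In the Arg1 and Pf4 cluster the share was 7.39% in 37 OVX cells and 9.91% in 63 sham cells (0.745, 0.733 to 0.757), but the median OVX cell (3.83%) was above the median sham cell (3.59%). Over all mature cells the ratio was 0.873 (0.863 to 0.884), with 2 canonical members past the fold and lower in OVX (Rpl9 and Rpl10), against 6.07% of all genes. The mature clusters were mixed differently, with 462 of 859 OVX and 115 of 696 sham mature cells in the Stfa2 cluster. Among the mature clusters, Rpl9 and Rpl10 had their lowest shares of the set there, at 1.57% and 1.45%. In the Retnlg cluster these were 2.72% and 1.90%. The part of this mix in the mature values was not tested.

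**Figure D5:**
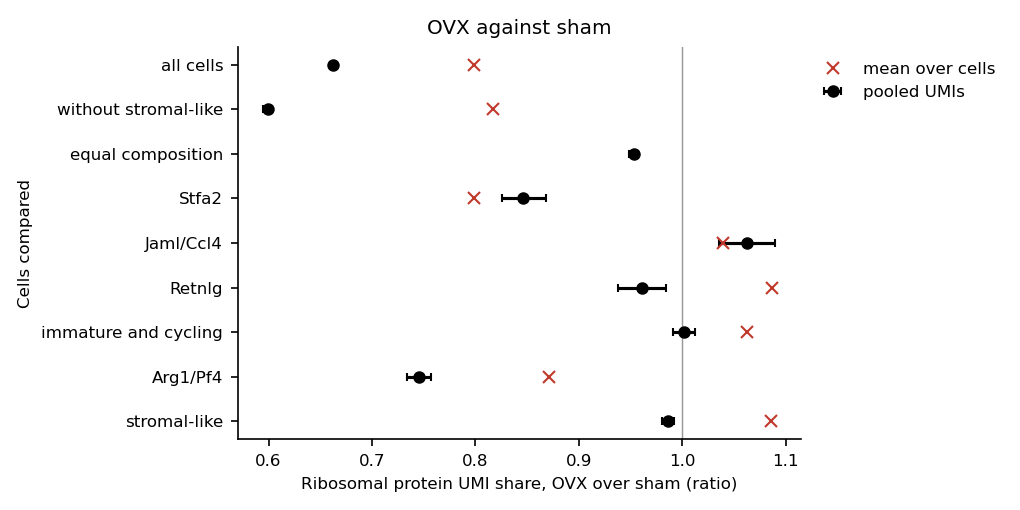
Ratio of the share of UMIs from the 86 genes, OVX over sham (x axis), for all cells, all but the stromal-like cells, equal cluster composition, and each cluster (y axis). Black points are pooled UMIs with 95% counting intervals, and red crosses are ratios of the mean over cells. The ratio is 0.662 over all cells, 0.599 without stromal-like cells and 0.953 at equal composition, and crosses and points lie on opposite sides of 1 in the Retnlg and stromal-like clusters.

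Single members departed little from the set between conditions. Over all cells, departures of the 83 members with enough UMIs ran from -0.43 to 0.35, and all were within 0.5 of 0. The lowest were Rps19bp1 (-0.43, -0.75 to -0.10), Rps27l (-0.31, -0.41 to -0.22), Rps2 (-0.25), Rpl5 (-0.20), which with Rpl11 and 5S RNA can bind Mdm2, and Rpl36al (-0.19). The highest were Rps27rt (0.35, 0.02 to 0.68), Rps27 (0.26), Rps9 (0.22), Rpl22l1 (0.15) and Rpl10a (0.15). As shares averaged over cells of equal weight, Rps9 departed by 0.02 and the signs of Rps27l (0.063), Rpl22l1 (-0.0048) and Rpl10a (-0.073) were the opposite, and the part of depth in this was not tested. Within the mature clusters together Rps9 and Rps27 departed by -0.08 and 0.02, and in stromal-like cells by 0.02 and -0.11.

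Of these members, Rps27l, Rpl22l1 and Rpl10a stood out among the stromal-like cells, where the set was nearly level between conditions. This is not a separate observation for any of them. Stromal-like cells gave 933 of the 1385 OVX UMIs of Rps27l and 728 of the 1006 of Rpl22l1. Whatever the hashtag, Rpl10a had 4500 UMIs in stromal-like, 668 in immature and cycling, 454 in Arg1 and Pf4 and 181 in mature cells. Rps27l was at 721 CPM in OVX (675 to 769) and 921 CPM in sham (874 to 969), Rpl22l1 at 563 CPM (522 to 605) and 474 CPM (440 to 508), and Rpl10a departed by 0.48 (0.37 to 0.59) and Rpl3 by 0.28 (0.19 to 0.38). Rps27l went the other way in mature cells, at 41.6 CPM in OVX (36.2 to 47.6) and 34.3 CPM in sham (27.6 to 42.2), with overlapping intervals. Rps2 departed by -0.73 (-0.92 to -0.54) in the immature and cycling and -0.70 (-0.94 to -0.46) in the Arg1 and Pf4 cluster, and by -0.06 in stromal-like cells. Rpl10 departed by -0.69 (-0.87 to -0.51) in the immature and cycling cluster and by -0.48 (-0.61 to -0.36) in mature cells, and by 0.02 in stromal-like cells. These are differences between 38 OVX and 54 sham stromal-like cells, or between 125 and 168 immature ones, of 1 pool each. Of the 209 stromal-like cells, 111 had neither hashtag. When a hashtag needed 80% of a cell's hashtag UMIs, 28 stromal-like cells went to OVX and 112 to sham. The values of single members were not repeated under that rule. Values over all mature cells, such as that of Rpl10, also hold the different mix of the mature clusters in OVX and sham.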

How the data were processed

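Cells of OVX and sham mice were hashtagged, pooled and run as 1 Chromium 3′ library (v3.1 chemistry). Reads were run by the authors through Cell Ranger on mm10 (version 6.0.1 in the submitters' processing notes, 6.0.0 in the file header), and the deposited values are raw UMI counts per gene and hashtag. Seurat 5.3.0 in R 4.3.3 assigned hashtags (HTODemux, quantile 0.99). Clustering used scanpy 1.11.5 and Louvain clustering (igraph 0.11.9) on 2000 variable genes, 30 principal components and 15 neighbors at resolution 0.35, without the 86 members. Mature clusters were those whose summed mature markers reached at least 0.5 of the highest. Levels are summed UMIs per 1000000. Intervals are Clopper-Pearson for shares and exact conditional or Poisson for ratios and counts, and they cover counting error only. That of the ratio at equal composition is propagated from Poisson errors. No barcode was removed, and Scrublet marked 1 doublet. Shares of 60-base words were counted in GENCODE transcripts of GRCm38, which also gave gene coordinates. Folds were tested on simulated counts (stromal against mature, 2667 genes, 200 changed by a known fold), and 100% of the changed genes were recovered. OVX against sham was not simulated, and this recovery says nothing of differences between animals or pools.

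The members and lists were chosen with earlier results of these data known. Named were the 5 members with the largest departures each way in each of 4 comparisons, the 5 with the most UMIs, every other member with a UMI that is no canonical protein, with its counterpart, and Fau and Rack1. Some items that this rule names are not reported here. Rps12, Rpl29, departures within single clusters or among immature cells, and the genes named from the other lists were chosen after their values were seen, as was the split of the immature cluster. Alternatives for the summed shares and ratios were other barcode, doublet, weighting, total, clustering and hashtag settings. Those for single members were other weighting, base and free RNA settings only.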

Additional observations from a re-analysis of the deposited data

Results flagged for a closer look

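The share of UMIs from ribosomal protein genes in OVX over sham cells lay on different sides of 1 in different clusters, with counting intervals that did not include 1. It was above 1 in the Jaml and Ccl4 cluster, at 1.06. It was below 1 in the Stfa2 cluster, at 0.846, in the Retnlg cluster, at 0.961, in the Arg1 and Pf4 cluster, at 0.745, and in the stromal-like cluster, at 0.986. With 1 pool in each condition, the difference between clusters was not tested. As means over cells of equal weight, the ratios were 1.04, 0.798, 1.09, 0.871 and 1.09 in the same order, so the Retnlg and stromal-like clusters changed sides.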

How the results depend on the processing

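The share over all cells (6.98%) was 7.02% once barcodes under 500 genes or above 10% mitochondrial UMIs were removed, 3.22% as a mean over cells of equal weight, 6.88% for canonical members, 7.08% without mitochondrial genes in the total, 11.9% without the 50 leading genes in the total, and 3.02% without stromal-like cells. The OVX over sham ratio (0.662) was 0.657 after the removal of those barcodes, 0.798 at equal weight, 0.737 without the 50 leading genes, and 0.599 without stromal-like cells, and it was 0.511 when a hashtag needed 80% of a cell's hashtag UMIs, a rule that gave 28 stromal-like cells to OVX and 112 to sham. The large over small subunit ratio (1.23) was 1.11 at equal weight, 1.22 for canonical members and 1.07 without stromal-like cells.

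The other clusterings put 131 to 384 cells in the immature cluster. Immature over mature (3.42) and stromal-like over mature (10.5) were 2.45 and 9.82 at equal weight, 3.46 and 10.7 without mitochondrial genes, 4.42 and 11.1 with the members kept in the clustering, 4.23 and 9.21 with 1000 variable genes, 3.6 and 10.9 with 30 neighbors, 4.35 and 9.14 with Leiden clustering, 3.39 and 10.4 with 8 clusters, and 3.54 and 10.96 with stromal free RNA taken off. The latter was 6.77 without the 50 leading genes. OVX over sham at equal composition (0.953) reversed to 1.01 (1.00595) at equal weight, and was 0.991 without the leading genes, 0.946 with the members kept, 0.923 with 1000 variable genes, 0.931 with Leiden clustering and 0.974 with the 80% hashtag rule. The causes were not tested.

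Of 110 values of single members under other settings, 107 kept their direction. The settings were equal weight per cell, departure from the median of the canonical members, and stromal free RNA taken off. Single members were not run again under other clusterings, barcode filters or hashtag rules. These members were named for the largest departures each way in the same counts, so most were unlikely to change direction. At equal weight, the OVX against sham departures of Rpl22l1, Rps27l and Rpl10a reversed to -0.0048, 0.063 and -0.073. Leaving out stromal cells, splitting the immature cluster and taking off free RNA were chosen after seeing the data. No paired analysis was possible because there is 1 library with 1 pool in each condition, and for the same reason no replicate could be left out. Depth limits single members in mature clusters, where a median cell had 3498 UMIs.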
